A study of Drosophila melanogaster with 999 samples.

Results

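The nuclear oxidative phosphorylation genes are the nuclear-encoded subunits of the respiratory chain and of the ATP synthase. They were taken by name from the deposited gene table: symbols that begin with ND-, UQCR-, COX and a digit, ATPsyn, Sdh or Cyt-c, together with blw and RFeSP. This choice uses no measured value and gave 67 of the 7279 genes in the table, of which 33 belong to complex I, 4 to complex II, 8 to complex III, 2 are cytochromes c, 7 belong to complex IV, 12 to complex V and 1, Sdhaf3, is an assembly factor of complex II. The genes lie on chromosomes 2L (14 genes), 2R (12), 3L (13), 3R (14), 4 (2) and X (12).

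Single-cell RNA-Seq was performed by the study on motoneurons (MNs) of Drosophila melanogaster embryos aged 19 to 20 h, the time at which MNs connect to muscles. All cells carried the OK371-GAL4 driver, active in glutamatergic neurons including a few in the brain, and a UAS red fluorescent protein (mRFP). Living nucleated RFP-positive cells were sorted from pooled embryos and processed by Smart-Seq2, in which primers against the Hox genes were included. The labels name no embryo or pool for a cell, so the cells of the 16 plates were treated as 1 sample. The groups follow marker genes used by the study: twit cells with at least 10 reads of twit, the target of wishful thinking, Vmat cells with at least 10 reads of Vmat, the vesicular monoamine transporter of modulatory neurons (79 cells, 9 of which are also twit cells), and low-twit cells with fewer than 10 reads of either gene. Both comparisons share the low-twit cells. Because cells are not replicates, no p-value was computed. Plates give the only spread beside that over cells, and the labels do not say whether plates also differ in embryos or sorting.

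Oxidative phosphorylation passes electrons from NADH (complex I) and succinate (complex II) through complex III and cytochrome c to oxygen at complex IV. The protons pumped on the way drive the ATP synthase, complex V. Neurons depend strongly on this ATP at synapses, and complexes I, III, IV and V each combine nuclear-encoded subunits with a few subunits that are made inside the mitochondrion from mitochondrial DNA.

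Total counts per cell ranged from 100027 to 5834773 (median 340803) and 640 to 4649 genes were detected per cell (median 1487), with 17 to 82 cells per plate. All 7 neuron markers were measured, with reads in 61.6% (Csp) to 100% (Syt1) of cells, and VGlut, the vesicular glutamate transporter that marks MNs, was detected in 95.8%. Markers of other tissues were rare in part. The muscle myosin gene Mhc had reads in 3 cells, the glial gene repo in 15 cells and the hemocyte gene Hml in 4 cells, whereas Mef2 (42.2% of cells) and nrv2 (64.4%) were the most widespread genes of the muscle and glia lists. The most widespread of the hemocyte list was srp (88 cells). In the epidermis, gut and trachea list fkh had reads in 13.2% of cells and trh in 83 cells. Rows for ribosomal RNA (rRNA) and its pseudogenes held a median of 38.7% of the reads of a cell (4.81% to 89.3%), and this share moved with several results below.

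The 67 genes were expressed at a high level but unevenly between cells. Together they held 7356402 of 506728793 reads, or 1.45%. In single cells the summed share of reads had a median of 1.08% and ranged between 0.000377% and 9.11%, with quartiles of 0.346% and 2.07%. Plate medians lay between 0.554% and 2.17% (SD 0.495, n = 16 plates). The cell with the lowest share was not a shallow one, with 530771 reads, 2 of the 67 genes detected and 60.5% rRNA reads. The cell with the highest share had 294911 reads, 55 of the genes and 12.3% rRNA reads.

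A median of 33 of the 67 genes was detected per cell (1 to 67), and the median gene had reads in 48.3% of cells, compared with 11.6% for the median gene of the whole table. With each cell thinned to 50000 reads these values were 45.2% and 9.01%. Of the 67 genes, 31 had reads in at least 50% of cells and 66 in at least 10%. The variation of a gene between cells was compared with a curve on which the squared coefficient of variation depends on the mean. This curve was fitted to the genes with a mean above that of the median gene and extended to the others. The 67 genes lay above it by a median of 0.34 on the log2 scale, against 0.14 for all genes, and 56 of the 67 were above the curve, against 62.01% of all genes.

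Levels between genes were compared in TPM, which accounts for transcript length. Complex IV subunits were highest with a median of 1870 TPM (mean over cells, median over 7 genes), followed by complex V with 915.2 TPM, complex III with 855.6 TPM, complex I with 362.6 TPM and complex II with 246.7 TPM. The ranges of neighbouring complexes overlapped, as shown in the plot of gene levels. In reads rather than TPM, complex V held 34.2% of the reads of the 67 genes, complex I 23.5%, complex IV 17.97%, complex III 15.7%, cytochrome c 4.47% and complex II 4.06%.

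**Figure D1:**
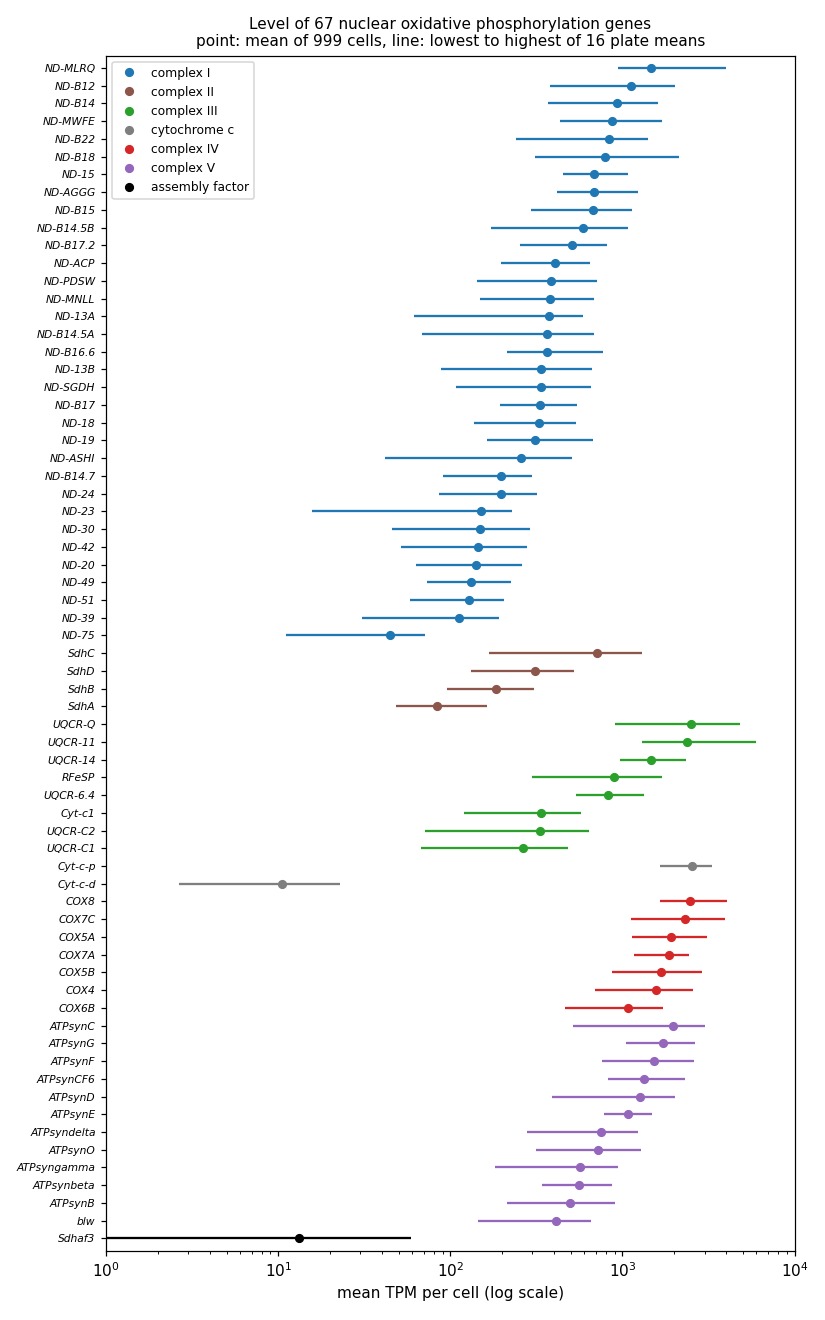
Mean TPM over all cells (points, log axis) of the 67 genes, grouped and coloured by complex, with lines from the lowest to the highest of the 16 plate means. Complex IV genes lie between 1077 and 2472 TPM, while complex I genes spread between 44.7 and 1474 TPM; the line of Sdhaf3 is clipped at 1 TPM because on at least 1 plate its mean was 0.

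Complex I, the NADH dehydrogenase, is the largest of the complexes. ND-MLRQ, the fly counterpart of a small subunit that in mammals is now placed in complex IV, was highest. It ranged from 0 to 21128 TPM over cells with a median of 718.4 TPM and a mean of 1474 TPM, and it was detected in 64.7% of cells (95% Clopper-Pearson interval 61.6 to 67.6). The accessory subunits ND-B12 and ND-B14 followed with means of 1114 and 924.3 TPM. ND-B12 had reads in fewer cells (44.8%) than ND-B14 (56.5%) but reached 33642 TPM in its highest cell. The lowest subunit was ND-75 (chromosome X, 8248651 to 8251687 in BDGP6.54), the large iron-sulphur protein of the electron entry arm, with a mean of 44.7 TPM, a highest value of 1071 TPM and detection in 28.8% of cells. The other nuclear core subunits ND-49, ND-51, ND-20, ND-30, ND-23 and ND-24, which hold or surround the redox centres, had means of 129.1 to 197.5 TPM, and all 6 were below the complex I median of 362.6 TPM.

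Complex II, succinate dehydrogenase, also acts in the citric acid cycle and has no mitochondrially encoded part. Its membrane anchors SdhC and SdhD had means of 714.6 and 308.3 TPM. The iron-sulphur subunit SdhB had 185.2 TPM and the flavoprotein SdhA 83.8 TPM. The 4 genes were nevertheless detected in similar shares of cells, between 35.2% (SdhD) and 47.8% (SdhC). The assembly factor Sdhaf3 was the rarest of the 67 genes, with reads in 2.10% of cells (1.31 to 3.20) and 13.2 TPM.

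In complex III, the small subunits UQCR-Q, UQCR-11 and UQCR-14 led with means of 2516, 2372 and 1474 TPM and were detected in 69.97%, 66.97% and 61.4% of cells. UQCR-11 had plate means from 1294 to 5965 TPM. The core proteins UQCR-C1 and UQCR-C2 had 264.2 and 332.2 TPM, and UQCR-C1 was the lowest of the complex. RFeSP, the Rieske iron-sulphur protein, had 890.3 TPM and Cyt-c1, the haem subunit that hands electrons to cytochrome c, 336.6 TPM.

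The table holds both cytochrome c genes of the fly, which are neighbours on chromosome 2L. Cyt-c-p (16719932 to 16722644) encodes the somatic protein and was, by mean TPM, the highest of all 67 genes. It ranged from 0 to 15949 TPM with a median of 2003 TPM and a mean of 2535 TPM, and was detected in 78.6% of cells (75.9 to 81.1). Cyt-c-d (16715891 to 16719635), known in flies for its role in sperm differentiation, had a mean of 10.4 TPM, and the ratio of the means was 242.8. It had reads in 16.3% of cells and at least 10 reads in 5.71%. Of the cells with Cyt-c-d reads, 90.2% also had Cyt-c-p reads, against 76.3% of the other cells, and rho between both genes was 0.26.

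Complex IV, cytochrome c oxidase, had the most even levels. COX8, COX7C and COX5A were highest with means of 2472, 2303 and 1923 TPM, and COX6B lowest with 1077 TPM, although COX6B was detected in the most cells of the 7 (76.6%). The medians over cells of the 7 genes lay between 640.2 TPM (COX6B) and 1499 TPM (COX8). CG7630, which the current annotation names COX7B, is not among the 67 genes because of its symbol in the table. It had 3112 TPM and was detected in 70.5% of cells.

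In complex V, ATPsynC encodes the subunit of the rotating membrane ring, which is present in several copies per enzyme. It had the highest mean (1965 TPM, 0 to 18063) and was the most widely detected of all 67 genes, in 90.4% of cells (88.4 to 92.1). ATPsynG and ATPsynF, subunits of the membrane part, had 1729 and 1525 TPM. The catalytic head subunits, blw (alpha) and ATPsynbeta, were the lowest and the third lowest of the 12 genes with 408.5 and 562.4 TPM, yet were detected in 70.3% and 75.9% of cells. The order of these genes in TPM was therefore not their order in detection.

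Flies have testis-expressed duplicates of several of these subunits, many with symbols that end in L. Of 26 annotated genes that match the naming rule but are not rows of the gene table, 12 had no estimated read in any cell and 14 had at least 1. The most reads were those of SdhAL (316.3 estimated reads per 1000 cells), and the most cells those of ND-51L1 (9 cells). All 26 together had 939.3 estimated reads, against 7356402 reads of the 67 genes. Whether each of the 26 is such a duplicate was not examined. ND-B8, whose symbol does not end in L, had 10 estimated reads in 3 cells.

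Next it was asked whether the genes vary together from cell to cell. For the 31 genes with reads in at least 50% of cells, Spearman rho was above 0 in all pairs, with a median of 0.44 and a range of 0.21 to 0.71. The median over all pairs of the 1002 genes in the table with reads in at least 50% of cells was 0.07. These genes were not matched to the 31 in level or in detection above that limit. All pairs share the libraries and their depth, so that these values are descriptions without a test. The strongest pair was ATPsynC with Cyt-c-p (0.71), followed by ATPsynC with ATPsynbeta (0.66) and with blw (0.64). The weakest pair was UQCR-6.4 with ND-MWFE (0.21), and UQCR-6.4, a small complex III subunit, was part of 4 of the 5 weakest pairs.

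Membership in a complex made little difference to the pairing. Pairs within a complex had a median rho of 0.47 and pairs between complexes 0.43. Among pairs within a complex, those of complex IV (0.50, 21 pairs) and complex V (0.49, 55 pairs) had higher medians than those of complex III (0.37, 21 pairs) and complex I (0.34, 10 pairs). Within single plates the median over pairs was 0.42, and 0.42 in low-twit cells alone. When the ranks of detected genes and of total counts were regressed out it was 0.26, and 0.20 when the rRNA share was regressed out as well.

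**Figure D2:**
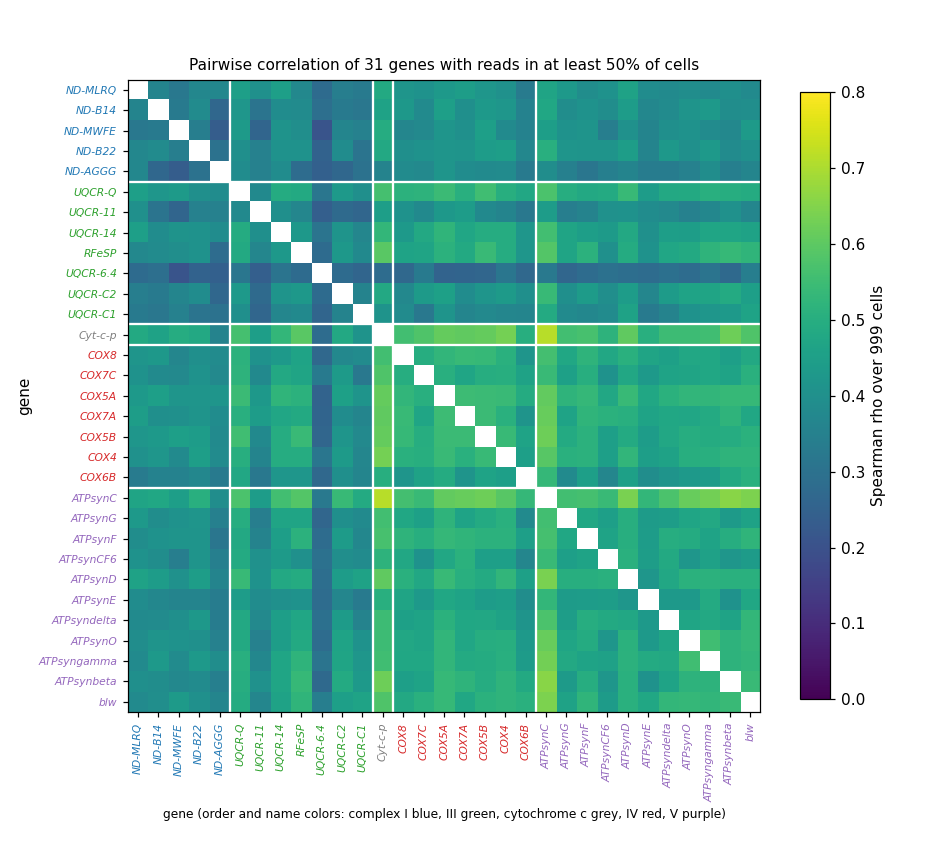
Spearman rho over all cells (colour scale from 0 to 0.8) for each pair of the 31 genes detected in at least 50% of cells, ordered by complex with white lines between complexes. The rows of ATPsynC and Cyt-c-p are the brightest, up to 0.71 where they cross, and the row of UQCR-6.4 is the darkest.

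Each gene was also correlated with the summed share of the other 66. The highest values belonged to ATPsynC (0.82), Cyt-c-p (0.81) and COX5A (0.73). The lowest belonged to Sdhaf3 (0.12), Cyt-c-d (0.25) and ND-75 (0.33), all 3 of which were detected in fewer than 50% of cells. Of the 31 widely detected genes, 29 had a rho of at least 0.5, compared with 14.3% of the 1002 genes in the table that pass the same detection limit.

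Genes of other functions followed the same pattern. The 5 genes outside the 67 with the highest rho were the glycolytic enzymes Ald (0.83), Eno (0.81), Gapdh1 (0.80) and Gapdh2 (0.79) and the replication-independent histone gene His4r (0.77). Over cells, the summed share of the 67 genes had a rho of 0.84 with that of the 12 glycolysis genes in the table (0.69 to 0.88 within plates), 0.83 with 73 mitochondrial ribosomal protein genes and 0.82 with 84 cytosolic ribosomal protein genes. It had a rho of 0.63 with the number of detected genes and 0.09 with total counts. The rRNA share ran opposite, with a rho of -0.74 overall and values below 0 on all 16 plates. After the ranks of detected genes, total counts and rRNA share had been regressed out, rho with glycolysis was 0.65. Co-variation with the 67 genes was thus also found in genes of other functions, and the part of library quality in it was not tested beyond these values.

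**Figure D3:**
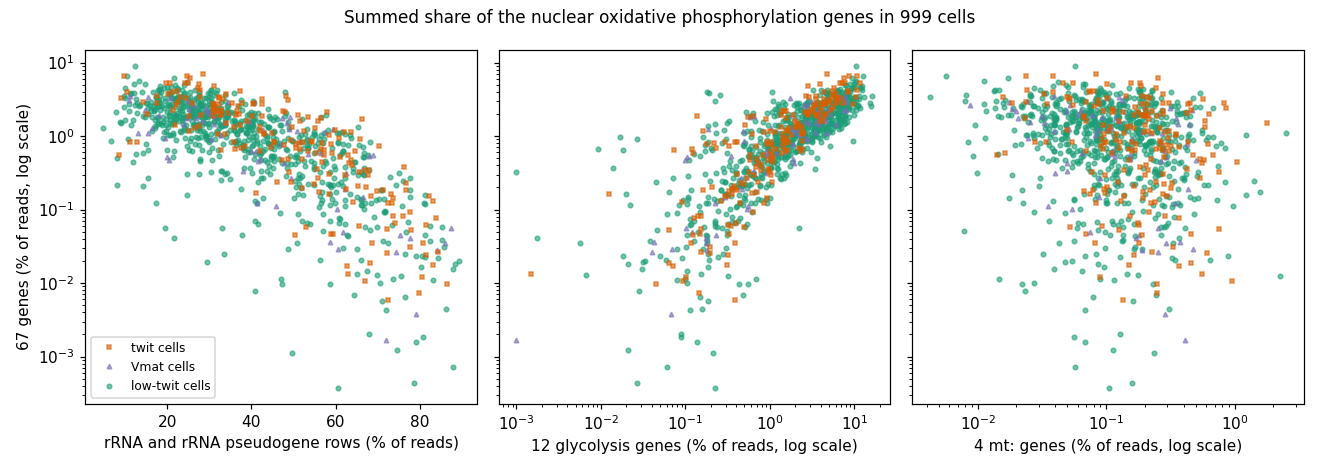
Summed share of reads of the 67 genes (vertical, log axis) in each cell against the share of rRNA rows (left, linear axis), of 12 glycolysis genes (middle, log axis) and of 4 mt: genes (right, log axis); cells with both markers are drawn as twit cells, and 2 cells with under 0.001% glycolysis reads are drawn at that value. The share is lower where rRNA reads are more (rho -0.74), higher where glycolysis genes are (0.84) and only weakly related to the mt: genes (-0.24).

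The other subunits of the same enzymes come from the mitochondrial genome. Of its 13 protein genes, 8 have a transcript in the deposited files and 4 are rows of the gene table, namely mt:CoI, mt:CoII and mt:CoIII of complex IV and mt:ND3 of complex I. Median levels over cells were 2574 TPM for mt:CoII (40.7 to 55432), 1140 TPM for mt:CoIII (0 to 47017) and 443.9 TPM for mt:CoI (0 to 12061). These 3 genes had reads in 100%, 99.8% and 99.9% of cells, more than any of the 67 nuclear genes, and had rho values of 0.79 to 0.83 with each other. mt:ND3 was detected in 23.8% of cells and had a median of 0 TPM.

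Nuclear and mitochondrial subunits were not higher in the same cells. The summed share of the 67 genes had a rho of -0.24 with that of the 4 mt: genes, and it was below 0 on 14 of 16 plates (-0.64 to 0.32). Among twit cells rho was -0.24, among Vmat cells -0.42 and among low-twit cells -0.22. Without rRNA and mt: rows in the denominator it was -0.42, while regressing out the ranks of detected genes and total counts gave -0.08. With the rRNA share regressed out as well it was -0.05, close to no relation, and in cells with under 50% rRNA reads it was -0.17. The sign was the same in these settings, but the size was not.

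The cell groups were compared next. In twit cells the summed share of the 67 genes had a median of 0.852% (quartiles 0.241% and 2.21%), in Vmat cells 1.05% (0.291% and 1.80%) and in low-twit cells 1.09% (0.381% and 2.05%). The 3 groups overlapped over nearly their whole range. On the log2 scale, the mean of twit cells differed from that of low-twit cells by -0.14 (7 of 16 plates above 0, 9 below, -1.82 to 1.80), and that of Vmat cells differed by -0.31 (6 of 14 plates above 0, 8 below). The direction for twit cells was not stable, with 0.11 without rRNA and mt: rows and 0.29 with groups at 50 reads. The value for Vmat cells was -0.15 as a mean within plates. It was -0.08 in cells with under 50% rRNA reads and -0.40 in cells with 50% or more. Without rRNA and mt: rows the medians of the summed share were 1.76% in twit cells, 1.57% in Vmat cells and 1.82% in low-twit cells. Both differences are smaller than the SD of the differences on single plates (0.996 and 1.01). This SD describes single plates and is not the error of a mean over plates.

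**Figure D4:**
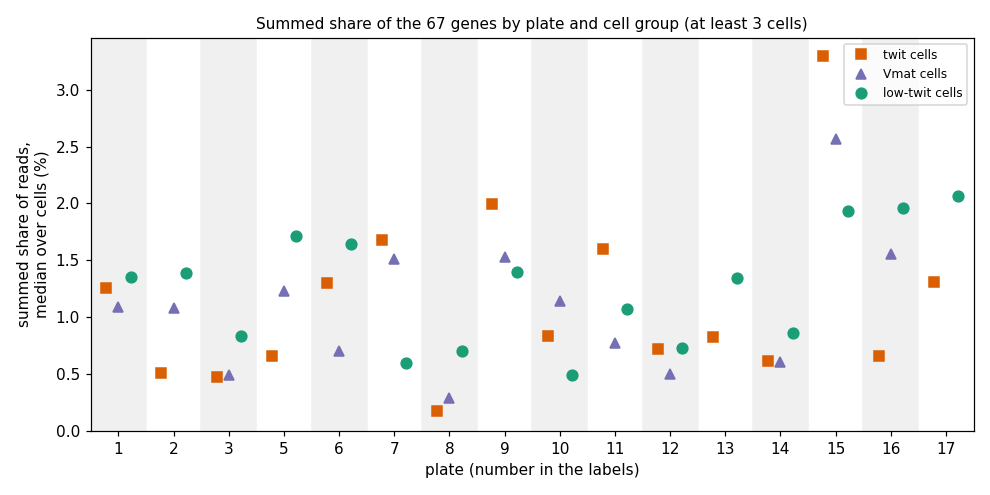
Median summed share of reads of the 67 genes (vertical, %) on each of the 16 plates for twit cells (squares), Vmat cells (triangles) and low-twit cells (circles), each with at least 3 cells on the plate. The order of the groups changes between plates: twit cells had the higher median on 5 and low-twit cells on 11 of the 16 plates.

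Gene by gene, values are differences of the mean log2(normalized count + 1) between groups. Between twit cells and low-twit cells the median gene of the 67 differed by 0.15, compared with -0.06 over all genes, and 44 of the 67 differences were above 0. The share of all genes above or below 0 was not counted in any comparison. As the genes vary together over cells (median pair rho 0.44 for 31 of them), such counts are not independent. None of the 67 reached a 2-fold difference, where 2.08% of all genes were at least 2-fold higher and 2.75% at least 2-fold lower in twit cells. The count was 1 or 2 without plate 1, 2, 3, 5, 13, 14, 16 or 17, 9 with a pseudocount of 0.1 and 10 with groups at 50 reads. Complexes I and III had the highest medians (0.27 with 27 of 33 genes above 0, and 0.30 with 5 of 8), while complex V had 0.07 and complex IV -0.08. Here and below, all genes were not matched to the 67 in detection (median 11.6% of cells against 48.3%). A gene with a mean log2 value below 1 in low-twit cells could not be 2-fold lower, which limits the share of all genes that were lower.

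The largest differences in twit cells were those of ND-B14.5B, an accessory subunit of complex I (0.99), UQCR-6.4 (0.94), ND-MNLL, a small complex I subunit (0.85), the core protein UQCR-C2 (0.84) and ND-B12 (0.80). UQCR-6.4 had a median of 573.3 TPM in twit cells (0 to 7553) and 111.7 TPM in low-twit cells (0 to 10086), and it was higher in twit cells on 14 of 16 plates. ND-B14.5B was detected in 50% of twit cells and in 32.1% of low-twit cells, or in 45.9% and 29.7% after thinning, and was higher on 13 of 16 plates. The lowest differences were those of COX7A (-0.60), Cyt-c-p (-0.45), SdhC (-0.37), the core complex I subunit ND-49 (-0.32) and ATPsynF (-0.23). For COX7A the medians were 923.9 TPM in twit cells, 1093 TPM in Vmat cells and 1418 TPM in low-twit cells, and it was higher in twit cells on 5 of 16 plates.

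The rRNA share moved with this comparison. Its median was 49.2% in twit cells, 41.1% in Vmat cells and 36.2% in low-twit cells, and it was higher in twit cells than in low-twit cells on 15 of 16 plates. Cells were therefore divided at 50% rRNA reads, a limit chosen after the data were seen. Above it lay 48.5% of twit cells, 32.9% of Vmat cells and 28.5% of low-twit cells.

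Below the limit, the summed share had a median of 2.18% in twit cells (0.166% to 7.07%) and 1.58% in low-twit cells (0.00113% to 9.11%). The mean log2 share was 0.50 higher in twit cells, and it was higher on 12 of the 13 plates with at least 3 cells of each group. Of the 67 genes, 65 were above 0, the median difference was 0.78 against -0.03 over all genes, and 18 were at least 2-fold higher, which 3.46% of all genes were, whereas none was at least 2-fold lower (2.35% of all genes). ND-B14.5B (1.72), UQCR-C2 (1.56), ND-MNLL (1.55) and UQCR-6.4 (1.48) led, and complex III had the highest median (1.21), with 0.82 in complex IV, 0.80 in complex I and 0.75 in complex V. Cyt-c-p differed by 0.12.

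At 50% rRNA reads or more, the summed share had a median of 0.273% in 95 twit cells and 0.215% in low-twit cells. Here 62 of the 67 genes were above 0 with a median of 0.44, against -0.00 over all genes, and the summed share was higher in twit cells on 7 of 13 plates. In this class 5 of the 67 genes, ND-B12, ND-B14, UQCR-C1, UQCR-C2 and ATPsynbeta, were at least 2-fold higher (2.61% of all genes) and none at least 2-fold lower (1.48%). The part of the rRNA share in the comparison of all cells was not tested. The division is not independent of the measure, since rRNA reads and the 67 genes share the same total.

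The mitochondrially encoded genes differed in one direction. Their summed share had a median of 0.181% in twit cells, 0.111% in Vmat cells and 0.106% in low-twit cells, and it was higher in twit than in low-twit cells on 15 of 16 plates. Without rRNA reads the medians were 0.354% in twit cells, 0.188% in Vmat cells and 0.190% in low-twit cells (higher in twit than in low-twit cells on 14 of 16 plates). By gene, the difference between twit and low-twit cells was 0.70 for mt:CoII and 0.60 for mt:CoI (each higher on 16 of 16 plates), 0.62 for mt:CoIII (15 plates) and 0.13 for mt:ND3 (10 plates). For mt:CoII the medians were 3983 TPM in twit cells and 2262 TPM in low-twit cells.

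Between Vmat cells and low-twit cells the median of the 67 genes was -0.24, compared with -0.03 over all genes, and 53 of the 67 differences were below 0. None was at least 2-fold higher (0.715% of all genes), and 2 genes, ATPsynbeta and UQCR-C1, were at least 2-fold lower with -1.08 each (0.467% of all genes). ATPsynCF6, the coupling factor in the stalk of the ATP synthase, stood just inside the limit with -0.995, followed by ND-15 (-0.83) and COX5A (-0.83). The count of 2 was not stable: it was 0 without plate 6 or 16, 1 without plate 3 or 8, 4 without plate 10, and 0 for the mean of the differences within plates.

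ATPsynbeta, the catalytic subunit of complex V, had a median of 124.1 TPM in Vmat cells (0 to 1953) and 355.2 TPM in low-twit cells (0 to 4032). It was detected in 67.1% of Vmat cells (55.6 to 77.3) and 75.2% of low-twit cells (71.9 to 78.3), or in 58.2% and 70.3% after thinning, and was lower in Vmat cells on 11 of 14 plates. UQCR-C1 had a median of 0 TPM in Vmat cells and 5.02 TPM in low-twit cells, was detected in 41.8% (30.8 to 53.4) and 51.4% (47.7 to 55.1), and was lower on 10 of 14 plates. In twit cells UQCR-C1 had a median of 87.1 TPM and a difference of 0.78. The difference between the twit and the Vmat comparison was not tested.

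Complex V had the lowest median in Vmat cells (-0.50, with 10 of 12 genes below 0), followed by complex III (-0.32), complex I (-0.20), complex II (-0.06) and complex IV (-0.05). The highest differences were those of ND-B16.6, a complex I subunit (0.50), blw (0.25), COX8 (0.22), COX6B (0.18) and ND-B22 (0.17). The alpha and beta subunits of the same catalytic head therefore lay at opposite ends. The gene blw had a median of 194.6 TPM in Vmat cells and 192.6 TPM in low-twit cells. Below 50% rRNA reads 6 of the 67 genes were at least 2-fold lower (0.838% of all genes) and none higher (1.07%), and the complex V median was -0.70, but at 50% or more, in 26 Vmat cells, it was 0.28. In the latter class the median over the 67 genes was -0.07, with 37 below 0. The summed share there had a median of 0.125% in Vmat cells and 0.215% in low-twit cells. Its mean log2 difference was -0.40, below 0 on 3 of 3 plates.

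**Figure D5:**
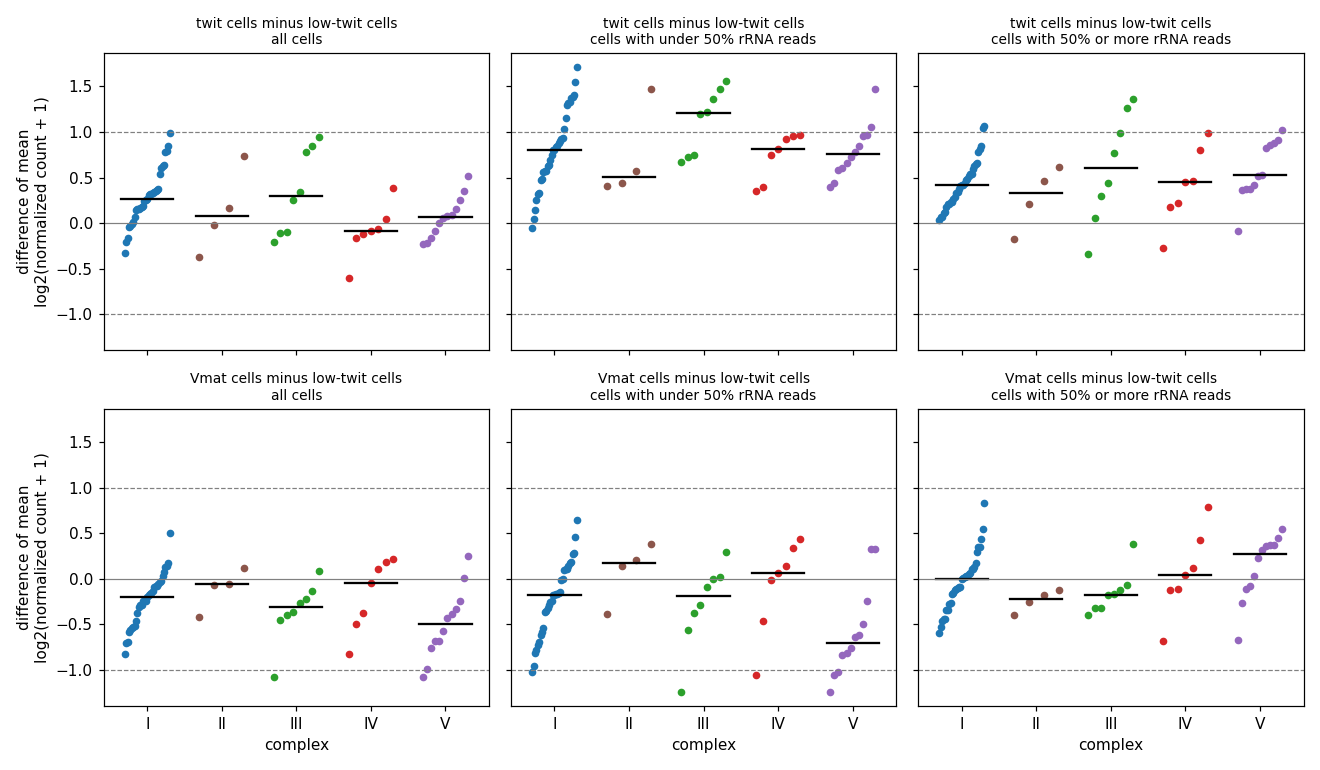
Difference of mean log2(normalized count + 1) from low-twit cells for each gene of complexes I to V (points) with the median of the complex (bar), in twit cells (top) and Vmat cells (bottom), for all cells (left), cells with under 50% rRNA reads (middle) and cells with 50% or more (right); dashed lines mark a 2-fold difference. In the upper middle panel nearly all points are above 0 and complex III has the highest median (1.21), whereas complex V is lowest in the lower middle panel (-0.70).

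Related gene lists were set beside the 67 genes. The 4 complex IV and V subunits outside the naming rule, levy (COX6A), cype (COX6C), sun (the epsilon subunit of complex V) and CG7630, had rho values of 0.59 to 0.72 with the summed share, and none reached a 2-fold difference in either comparison. The 5 assembly factors on the list (Scox, Surf1, Ccdc56, CIA30 and CG4908) were rare, with reads in a median of 4.70% of cells. Of 14 mitochondrial carriers and outer membrane proteins none was past 2-fold in either comparison, and the list had a median of -0.02 in twit cells. Its ends there were Tim17b, part of the inner membrane translocase, at -0.91 (lower on 15 of 16 plates) and Tom7, of the outer membrane translocase, at 0.86 (higher on 12 of 16).

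Of 14 citric acid cycle genes, 2 were at least 2-fold higher in twit than in low-twit cells, against 2.08% of all genes. They are kdn, citrate synthase, with 1.38 (higher on 16 of 16 plates), and l(1)G0156, a subunit of NAD-dependent isocitrate dehydrogenase, with 1.40 (13 of 16 plates). No gene of this list was past 2-fold in Vmat cells. Of 11 genes for mitochondrial biogenesis, Myc was 2.19 higher in twit cells on 16 of 16 plates, while TFAM, which packages mitochondrial DNA, differed by -0.22. Of 12 glycolysis genes, 2 were at least 2-fold lower in twit cells, against 2.75% of all genes. They are Eno, with -1.01 (lower on 11 of 16 plates), and Pglym78, with -1.12 (13 of 16 plates). In Vmat cells 1 was at least 2-fold lower, Pglym78, with -1.09 (9 of 14 plates), against 0.467% of all genes. The summed share of the 12 genes had medians of 1.26% in twit cells, 1.73% in Vmat cells and 1.86% in low-twit cells. Its plate median was below that of low-twit cells on 12 of 16 plates in twit cells and 7 of 14 in Vmat cells. Glycolysis genes were compared over all cells only, so the part of the rRNA share in these differences was not tested. None of 7 genes of defence against oxidants and none of 73 mitochondrial ribosomal protein genes was past 2-fold in either comparison. Over all genes 0.715% were at least 2-fold higher in Vmat cells. The 2 lists had reads in a median of only 10.2% and 11.1% of cells. A gene with a mean log2 value below 1 in low-twit cells, such as Sod2 (0.62) or mRpL1 (0.70), could not be 2-fold lower. The same limit applies to Ant2 (0.04) and blp (0.22) of the carrier list.

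Neuronal markers moved with the groups as well. VGlut differed by -2.19 in twit cells (lower on 16 of 16 plates) and by -1.84 in Vmat cells (lower on 12 of 14 plates), and the active zone gene brp was 1.13 higher in twit cells (16 of 16 plates). The part of these differences in those of the 67 genes was not tested. Marker lists of other tissues had low medians in each group. The 2 muscle genes in the table had a median summed share of 0% in twit, Vmat and low-twit cells. The 4 glia genes had 0.0015% in twit cells, 0.0065% in Vmat cells and 0.00711% in low-twit cells, but reached 10.5% in the highest low-twit cell. Of the 2 genes of the epidermis, gut and trachea list in the table, the tracheal gene trh was 1.31 higher in Vmat cells (10 of 14 plates), while fkh differed by -0.22 (lower on 10 of 14 plates). The summed share of both genes had a median of 0% in each group. No gene of the hemocyte list was in the table.

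For 35 of the 67 genes an exon overlaps an exon of another gene, on the same strand in 7 cases and on the opposite strand in 30. Smart-Seq2 reads carry no strand, so that reads of such pairs cannot be told apart where they overlap. Among the genes with the largest differences this applies to UQCR-6.4, UQCR-C2, ND-B12, ND-MNLL, ATPsynbeta, ND-15 and COX5A, but not to ND-B14.5B, UQCR-C1, COX7A or Cyt-c-p.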

How the data were processed

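Cells were sorted and sequenced by the study as described above, with 1 library per cell. Per the labels and the paper's methods, the authors quantified reads with kallisto 0.43.0 against BDGP6 transcripts and worked in R 3.5.1, versions given in the submitters' processing notes. The gene table deposited by the authors holds counts per gene, not normalized. Per the paper's methods, cells were kept with 10 reads for each of 500 genes, and genes with 10 reads in each of 5 cells. In the table, 40 cells and 4 genes fall below these limits. The per-cell files deposited by the authors hold estimated counts per transcript (expected counts) and TPM values, scaled to 1000000 per cell. Counts were used for shares, detection and differences. TPM values, summed over the transcripts of a gene with the Ensembl 115 annotation (BDGP6.54), were used for levels between genes. Estimated counts served for genes outside the table. Deposited transcripts without a match in this annotation entered no gene, so TPM values and estimated counts may be too low for some genes.

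Normalized counts were counts divided by total counts over their median, and log2 values had a pseudocount of 1 (for summed shares, 0.01%). The 999 cells comprised 196 twit cells, 79 Vmat cells (9 in both) and 733 low-twit cells, defined at 10 marker reads, and plates entered with at least 3 cells of a group. Correlations are Spearman rho over 999 cells, and the 31 widely detected genes gave 465 pairs, 107 within and 358 between complexes. Below 50% rRNA reads lay 101 twit, 53 Vmat and 524 low-twit cells, above it 95, 26 and 209. Each cell was thinned to 50000 reads where stated. Intervals are exact Clopper-Pearson intervals at 95% and cover counting error only, since PCR reads without molecular identifiers are not independent molecules. Depth was 100027 to 5834773 counts per cell. The cells were treated as 1 sample, hence no test, p-value or standard error from cells. Fold counts leave out twit and Vmat themselves (7277 genes). Scripts ran in Python 3.11.15 with numpy 2.4.6, pandas 2.3.3 and scipy 1.17.1 and were tested on simulated data. The genes named are the 3 highest and the lowest of each complex, paralog pairs, the 5 largest and 5 lowest differences per comparison, the 3 highest and 3 lowest correlations, the mt: genes and the 5 outside genes with the highest correlation. Others were named after their values were seen. The 67 genes and the lists were chosen with earlier results of these data known. No doublet caller was run, as each well held a sorted cell. Alternatives are given in the closing section.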

Additional observations from a re-analysis of the deposited data

Results flagged for a closer look

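Signal above the 3 reads that a count of 0 allows was found for 15 genes that are in the transcript files but not in the gene table, and that enter no comparison. Of these, 13 match the naming rule. In estimated reads per 1000 cells, SdhAL had 316.3, ND-51L1 140.1, ND-49L 119.1, ATPsynepsilonL 88.09, ATPsynCF6L 75.08, COX7CL 55.06, ND-B14.5AL 45.05, COX6AL2 40.3, ATPsynbetaL 29.03, ND-B8 10.01, ND-24L 7.01, SdhBL 6.01 and UQCR-11L 6.01. No more than 9 cells had a read of any of the 13. The other 2 are mitochondrially encoded complex I subunits, mt:ND2 with 221.2 and mt:ND6 with 331.3 estimated reads per 1000 cells.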

How the results depend on the processing

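Of 61 alternatives 40 moved no value by more than its spread or its count by over 1.5 times, and 21 did. The spread is the SD of values from single plates. It was wide for the summed differences (0.996 in twit and 1.01 in Vmat cells) and for rho with mt: genes (0.234). The 40 therefore include changes of sign in the twit difference and the change of rho with mt: genes from -0.24 to -0.05. They do not measure stability. In each, the cause was not tested. Without rRNA and mt: rows the median share was 1.79%, and rho with glycolysis 0.771. At 10 reads the median detection was 42.6%. The 67 genes past 2-fold in twit cells numbered 2 without rRNA and mt: rows and as a mean within plates, 1 without cells of both markers, 9 with a pseudocount of 0.1, 10 with groups at 50 reads and 18 under 50% rRNA reads, against 0. In Vmat cells they numbered 0 without rRNA and mt: rows, after thinning, with a pseudocount of 10 and within plates, 1 with groups at 1 read, 7 with a pseudocount of 0.1 and 6 under 50% rRNA reads, against 2. The summed difference of twit cells (-0.14) changed sign to 0.11 without rRNA and mt: rows, 0.29 at 50 reads and 0.50 under 50% rRNA reads. Median pair rho was 0.256 with detected genes and total counts regressed out, 0.197 with the rRNA share as well and 0.337 under 50% rRNA reads. The Spearman correlation with glycolysis was 0.649 and 0.725 in the last 2 settings. Settings on the rRNA share were chosen after seeing the data.

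Leaving out each plate in turn gave 1.01% to 1.14% for the share, 47.9% to 49.1% for detection, -0.28 to -0.07 and -0.46 to -0.18 for the summed differences of twit and Vmat cells, 0 to 2 and 0 to 4 genes past 2-fold, 0.435 to 0.445 for pair rho, -0.288 to -0.207 for rho with mt: genes and 0.835 to 0.849 with glycolysis. With the ratio of means as the measure, the median of all genes was -0.49 in twit and -0.24 in Vmat cells, and that of the 67 genes 0.08 and -0.20. The 2 genes then past 2-fold in Vmat cells were ND-75 and Sdhaf3, and not ATPsynbeta and UQCR-C1. Compared within plates, which hold both groups, the summed differences averaged -0.15 in twit cells (16 plates) and -0.15 in Vmat cells (14 plates), against -0.14 and -0.31. Under 50% rRNA reads the Vmat value was -0.08, and at 50% or more it was -0.40. With the cells treated as 1 pooled sample, plates give the only spread, and differences between embryos cannot be told apart from those between cells.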
